A study of Mus musculus with 19 samples.

Results

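The core circadian clock genes are described here in the livers of mice that lost Raly in hepatocytes. They were chosen by symbol, with earlier results of these data known, as the 10 genes of the central feedback loop (Arntl, Clock, Npas2, Per1, Per2, Per3, Cry1, Cry2, Nr1d1 and Nr1d2) among 24054 genes of the RNA-seq table, and all 10 were found. Whole liver RNA-seq was available from 3 L-RalyKO and 3 control mice, whereas a figure legend of the study gives 4 per group. All were Raly flox/flox on a C57BL/6 background, fed chow and kept under a light/dark cycle. L-RalyKO mice had received the adeno-associated virus AAV8.TBG.Cre and controls AAV8.TBG.GFP, and livers were taken 4 weeks later. Controls, which the sample labels call wild type, therefore carried the floxed alleles and a virus as well. The TBG promoter is active in hepatocytes, so that other liver cells keep their Raly. The study used male mice unless it said otherwise. The age of the mice and the hour of the day at which livers were taken are not given in the sources used here. The study mentions fasting mice beside a comparison of expression in livers of chow-fed L-RalyKO mice, without saying whether the mice of the RNA-seq were fasted.

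The molecular clock of mammals is a loop of transcription. ARNTL (BMAL1) pairs with CLOCK, or with its relative NPAS2, and switches on the Per, Cry and Nr1d genes through E-boxes. PER and CRY proteins then return to the nucleus and block that pair, while the REV-ERB receptors encoded by Nr1d1 and Nr1d2 repress Arntl through ROR elements. In mouse liver Arntl and Npas2 therefore peak in the opposite phase to Nr1d1, the Per genes and their companion Dbp. A mouse killed at another hour would be expected to differ from its peers in opposite directions for these sets of genes, which is the question put to the mice below.

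Recovered reads on genes were between 28302983 and 38052705 per liver. Values are the deposited ones, reads divided by a scaled library size but not by gene length. Raly, the deleted gene, had values of 6.34, 6.61 and 7.39 in L-RalyKO liver and of 50.1, 48.6 and 46.8 in control liver, so that each library matched its label. Among 23 markers of other liver cells, 18 were tested and 0 had an adjusted p under 0.05 (limma, background 6.55% of all genes tested). With 1 of the 18, an unadjusted p under 0.05 was reached (limma, background 22.7%). None of the 23 was at 0 in any liver. The summed values overlapped between the groups for the markers of Kupffer cells (125 to 184 in controls, 129 to 167 in L-RalyKO liver), endothelial cells (151 to 161 and 134 to 170), stellate cells (196 to 214 and 183 to 236) and lymphocytes (7.33 to 9.22 and 5.86 to 8.37). The sums of the 4 cholangiocyte markers did not overlap, with 4.62 to 5.93 in controls and 6.85 to 8.35 in L-RalyKO liver. Sox9, the largest part of that sum, did not overlap (limma adjusted p = 0.0774, background 28.1%), nor did Krt19, whereas Krt7 and Epcam overlapped. Sums of the 6 hepatocyte markers did not overlap either, with 79220 to 88226 and 88767 to 90191. Alb, by far the largest part of these, overlapped between the groups (log2 fold change 0.050, limma adjusted p = 0.889). The part of these shifts in the clock results was not tested. Of the 6 hepatocyte markers 1 rose (background 6.55%), namely Hnf4a (log2 fold change 0.55, adjusted p = 0.0155, limma). At an unadjusted p under 0.05 there were 3 of the 6 (limma, background 22.7%). In bulk tissue, fewer cells of a type and less RNA per cell cannot be told apart.

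Per kilobase of annotated exon, Nr1d2 was the most abundant clock gene in each of the 6 livers, with levels from 22.7 to 28.7 per kb. Per1 followed with 13.6 to 18.7 per kb and Nr1d1 with 12.8 to 23.0 per kb, and these overlapped, while Nr1d1 reached the range of Nr1d2 in 1 mouse. Per2 had levels of 9.70 to 12.4 per kb and Cry2 of 7.14 to 9.82 per kb, so that this pair overlapped as well. Per3 (4.34 to 5.52 per kb) overlapped Cry1 (3.36 to 4.74 per kb), and Cry1 overlapped Clock (2.65 to 3.48 per kb). Arntl lay below all of these in every mouse, at 0.259 to 0.575 per kb, and Npas2 lay lowest at 0 to 0.0226 per kb. Arntl and Npas2, which peak opposite to Nr1d1 and the Per genes, were thus at the bottom of the order in all 6 livers. This order compares different genes and is not a measure of phase.

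**Figure D1:**
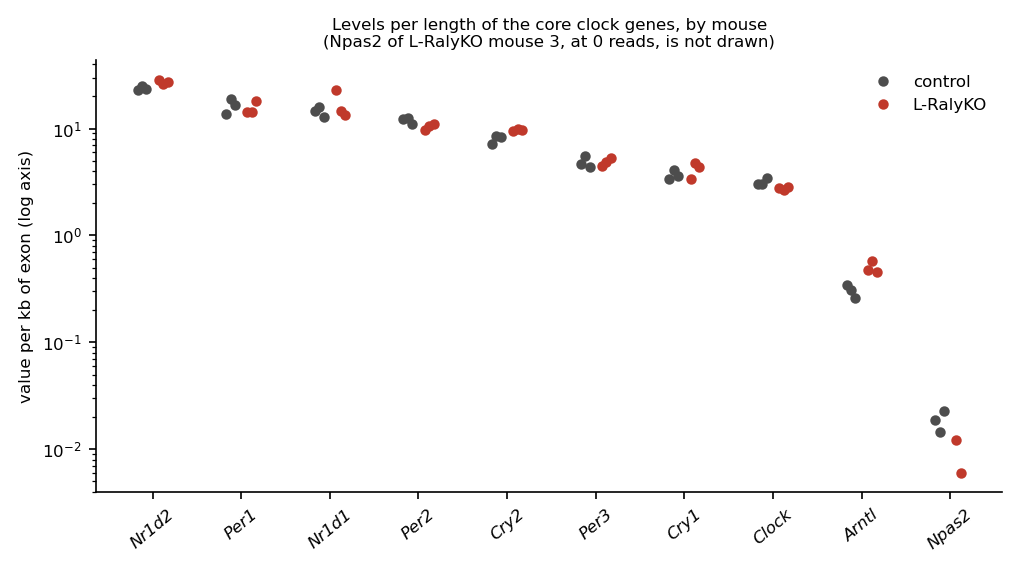
Level of each core clock gene per kilobase of exon (log axis), 1 point per mouse, grey for controls and red for L-RalyKO. Arntl, at 0.259 to 0.575 per kb, and Npas2, at 0 to 0.0226 per kb, lie under the other 8 genes in every mouse.

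None of the 9 core clock genes that could be tested rose or fell in L-RalyKO liver at an adjusted p under 0.05 (limma on log2(value + 1)). The background was 6.55% of the 11580 genes tested. At an unadjusted p under 0.05 there were 5 of the 9 (background 22.7%), namely Arntl, Clock, Per2, Cry2 and Nr1d2, and the values of the same 5 did not overlap between the groups (background 28.1%). Over the 9 genes the median absolute log2 fold change was 0.20, beside 0.10 over all genes tested. Of the 9, 6 had a positive and 3 a negative log2 fold change. On the recovered reads edgeR's quasi-likelihood test (6.29% of all genes called) and limma voom (6.33%) also called 0 of them. DESeq2, which called 9.40% of all genes, called 2 of the 9 (Cry2 and Nr1d2), and limma without an intensity trend, which called 4.63%, called 1 (Arntl). Npas2 was not tested because its mean value was under 1.

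**Figure D2:**
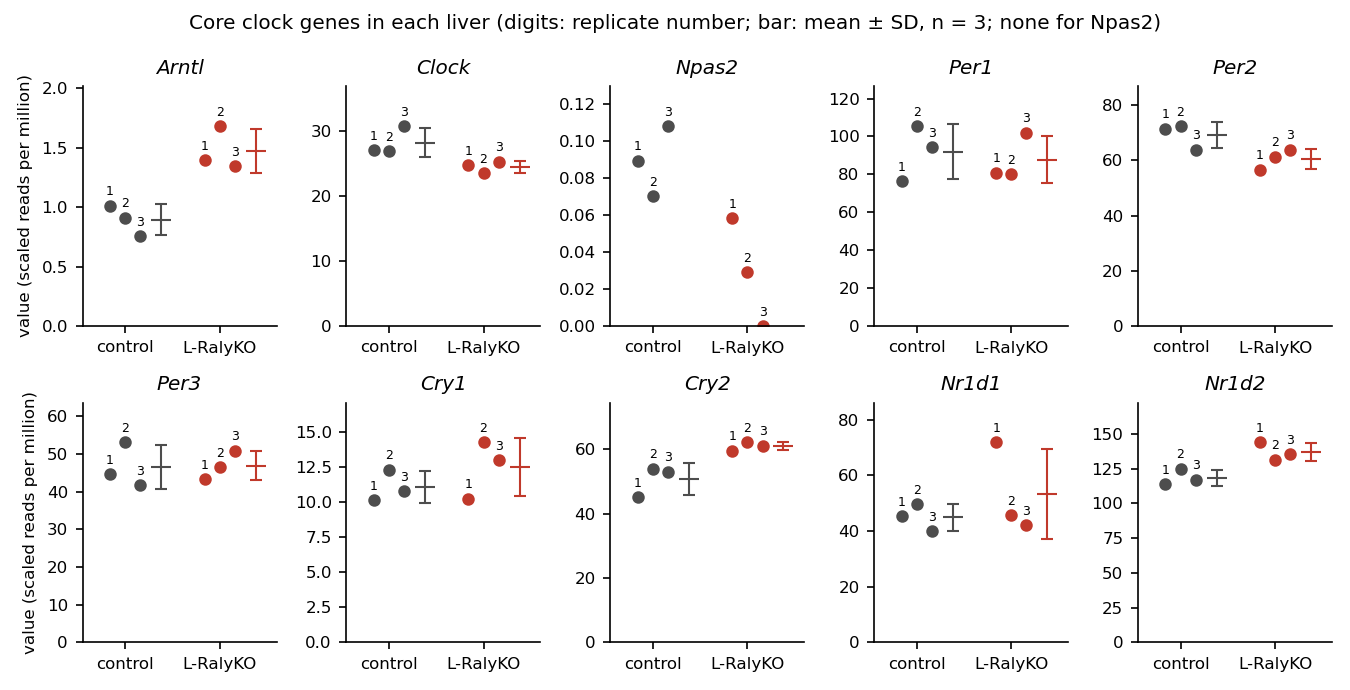
Values of the 10 core clock genes (reads scaled to library size, each panel with its own axis from 0) in each liver, with replicate numbers, and mean ± SD of 3 mice beside the points except for Npas2. The groups do not overlap for Arntl, Clock, Per2, Cry2 and Nr1d2 (background 28.1% of genes tested). The barely counted Npas2 has 2 reads both in control mouse 2 and in L-RalyKO mouse 1, so that its values part only through library scaling.

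Of the activators, Arntl (ENSMUSG00000055116.6, NCBIM37 chromosome 7 from 120350979 to 120457636, + strand) encodes BMAL1, the partner that the loop cannot do without. Its values were 1.01, 0.912 and 0.757 in control liver and 1.40, 1.68 and 1.34 in L-RalyKO liver. Every L-RalyKO mouse lay above every control (0.894 ± 0.129 against 1.47 ± 0.183, SD, n = 3 mice each). These values rest on few reads, namely 34, 26 and 28 in controls and 48, 58 and 51 in L-RalyKO mice. Exact Poisson 95% intervals of these reads, scaled like the values and covering counting error only, ran from 0.503 to 1.09 for control mouse 3, the lowest, and from 1.28 to 2.18 for L-RalyKO mouse 2, the highest. That pair was the only one parted, and the intervals overlapped in 8 of the 9 pairs of a control with an L-RalyKO mouse. Such overlap between single mice is not a test of the difference between the groups. On the log2(value + 1) scale limma gave a log2 fold change of 0.38 ± 0.12 (SE), with a 95% interval from 0.12 to 0.65 and an adjusted p of 0.0890. That scale compresses a gene of such a low level. EdgeR, which works on the reads, gave a log2 fold change of 0.72 (adjusted p = 0.0715). DESeq2, also on the reads, gave 0.72 with an adjusted p of 0.155.

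Clock (ENSMUSG00000029238.7, chromosome 5 from 76639992 to 76733817, − strand) encodes the partner of BMAL1. It had values of 27.0, 26.8 and 30.7 in controls and of 24.7, 23.4 and 25.3 in L-RalyKO liver. All 3 L-RalyKO mice lay below all controls, opposite to Arntl. For Clock the log2 fold change was −0.20 ± 0.068 (SE), its 95% interval reached from −0.35 to −0.04 and the adjusted p of limma was 0.131. Npas2 (ENSMUSG00000026077.9, chromosome 1 from 39250576 to 39420079, + strand) encodes a protein that can replace CLOCK. It had 3, 2 and 4 reads in controls and 2, 1 and 0 in L-RalyKO mice, too few for a fold change.

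The repressors showed no common direction. Per1 (ENSMUSG00000020893.11, chromosome 11 from 68908719 to 68923462, + strand), which also responds quickly to outside signals, had values of 76.4, 106 and 94.2 in controls and of 80.9, 80.0 and 102 in L-RalyKO liver. The groups overlapped, with a log2 fold change of −0.067, a 95% interval from −0.36 to 0.22 and a limma adjusted p of 0.808. Per2 (ENSMUSG00000055866.7, chromosome 1 from 93312561 to 93355907, − strand) had values of 71.5, 72.5 and 63.93 in controls and of 56.7, 61.4 and 63.91 in L-RalyKO liver. The groups were parted by the small step between 63.91 and 63.93. Per2 had a log2 fold change of −0.19 ± 0.067 (SE), with a 95% interval from −0.34 to −0.04 and an adjusted p of 0.135 (limma). Per3 (ENSMUSG00000028957.6, chromosome 4 from 150377761 to 150418774, − strand), a strongly rhythmic gene whose protein is the least needed of the PER proteins, had values of 44.6, 53.0 and 41.7 in controls and of 43.3, 46.4 and 50.9 in L-RalyKO liver. Its groups overlapped, and its log2 fold change of 0.017 (95% interval −0.20 to 0.23, limma adjusted p = 0.941) turned to −0.017 with total count scaling.

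Cry1 (ENSMUSG00000020038.9, chromosome 10 from 84594447 to 84647799, − strand) encodes the late and strong repressor of the loop. Its values were 10.1, 12.3 and 10.8 in controls and 10.3, 14.3 and 13.0 in L-RalyKO liver. L-RalyKO mouse 1 lay among the controls and the other 2 above them. Limma put the log2 fold change of Cry1 at 0.15, with a 95% interval from −0.12 to 0.43 and an adjusted p of 0.491. It was 0.061 without L-RalyKO mouse 2, 0.097 without control mouse 1 and 0.28 without L-RalyKO mouse 1. Cry2 (ENSMUSG00000068742.5, chromosome 2 from 92243803 to 92274200, − strand), the second cryptochrome, had values of 45.1, 54.0 and 53.0 in controls and of 59.5, 62.1 and 61.1 in L-RalyKO liver. All 3 L-RalyKO mice lay above all controls, and they also lay closer to each other (SD 1.30 against 4.89). Limma put the log2 fold change of Cry2 at 0.26 ± 0.071 (SE), with a 95% interval from 0.10 to 0.43 and an adjusted p of 0.0648. That p was 0.0739 with edgeR and 0.0297 with DESeq2. In the annotation 295 exonic bases of Cry2 are shared with D930015M05Rik, a gene of the other strand with a mean value of 0.541.

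The REV-ERB receptors repress Arntl and respond to heme. Nr1d1 (ENSMUSG00000020889.10, chromosome 11 from 98629246 to 98636647, − strand) had values of 45.3, 49.6 and 39.95 in controls and of 71.8, 45.8 and 42.2 in L-RalyKO liver. L-RalyKO mouse 1 stood above all other mice, and the other 2 lay within the range of the controls. Over all mice Nr1d1 had a log2 fold change of 0.20 with a 95% interval from −0.20 to 0.61 (limma adjusted p = 0.540), and without L-RalyKO mouse 1 it was −0.027. The 3′ end of Nr1d1 shares 263 exonic bases (chromosome 11 from 98629471 to 98629733) with Thra, a thyroid hormone receptor gene of the other strand. Thra had values of 8.58, 7.47 and 8.38 in controls and of 7.53, 6.90 and 7.66 in L-RalyKO liver. Thra was not high in L-RalyKO mouse 1. Libraries were stranded, but whether reads were counted by strand is not given in the sources used here.

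Nr1d2 (ENSMUSG00000021775.9, chromosome 14 from 19036568 to 19071641, − strand), the second REV-ERB gene, had values of 114, 125 and 117 in controls and of 144, 131 and 135 in L-RalyKO liver. All L-RalyKO mice lay above all controls, whereas for Nr1d1 only 1 of 3 did. Its log2 fold change was 0.20 ± 0.056 (SE), and the 95% interval reached from 0.08 to 0.33. The adjusted p was 0.0651 with limma, 0.0645 with edgeR and 0.0436 with DESeq2. For each gene whose groups did not overlap, the two-sided exact permutation test over the 6 mice gave p = 0.1, the smallest that 3 mice against 3 allow.

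**Figure D3:**
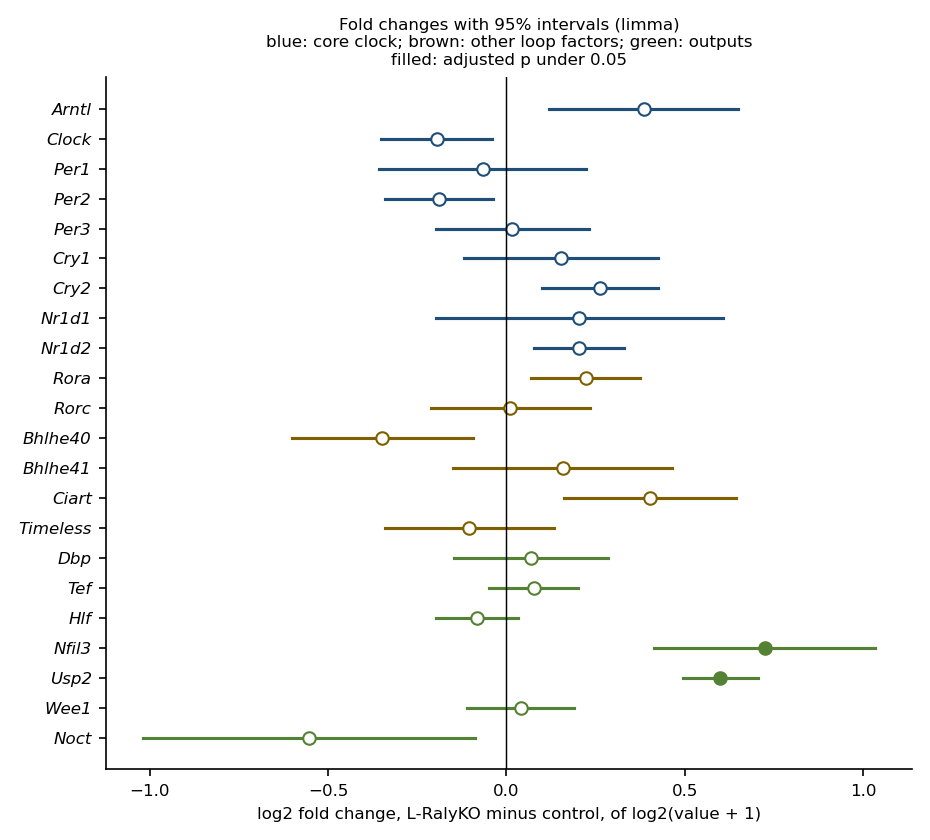
Log2 fold changes (L-RalyKO minus control, limma on log2(value + 1)) with 95% intervals for the 9 tested core clock genes and the tested genes of 2 neighbouring lists. Open circles mark an adjusted p of 0.05 or more. All 9 core genes are open, and Nfil3 (0.73) and Usp2 (0.60) are the filled ones.

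For the question of phase, each L-RalyKO mouse was set against the range of the 3 controls over the 9 tested genes. In every L-RalyKO mouse 4 genes lay above that range, 2 below it and 3 within it. The share of all tested genes outside that range was not counted, so these places have no background. Arntl, Cry2 and Nr1d2 were above, and Clock and Per2 below, in all 3 mice, while Per1 and Per3 were within it in all 3. The mice differed in the fourth gene above the range, which was Nr1d1 in mouse 1 and Cry1 in mice 2 and 3. Arntl and Nr1d2, which belong to opposite phases, were therefore on the same side of the controls in each of the 3 mice. Arntl and Per2, also of opposite phases, were on opposite sides in each. For Per2 in L-RalyKO mouse 3 this rests on a value of 63.91 against the lowest control at 63.93.

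The ratio of Arntl to a gene of the opposite phase within a liver was described without a test. On the log2(value + 1) scale Arntl minus Nr1d1 was −4.52, −4.73 and −4.54 in controls and −4.92, −4.12 and −4.20 in L-RalyKO liver. L-RalyKO mice 2 and 3 thus had the highest ratios of the 6. Mouse 1 had the lowest, but with a pseudocount of 0.1 it lay within the controls (−5.59, against −5.35, −5.62 and −5.55). The mean difference between the groups was 0.18, and 0.46 with that pseudocount. Arntl minus Per3 was −4.50, −4.82 and −4.60 in controls and −4.21, −4.14 and −4.47 in L-RalyKO liver, where all 3 L-RalyKO mice were above all controls. Their mean difference was 0.37, and 0.65 with a pseudocount of 0.1. Both ratios contain Arntl and are not independent of its own difference, and times of collection for the single mice were not among the labels. A difference in phase between the groups and an effect of the deletion on single clock genes cannot be told apart from these 6 livers.

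**Figure D4:**
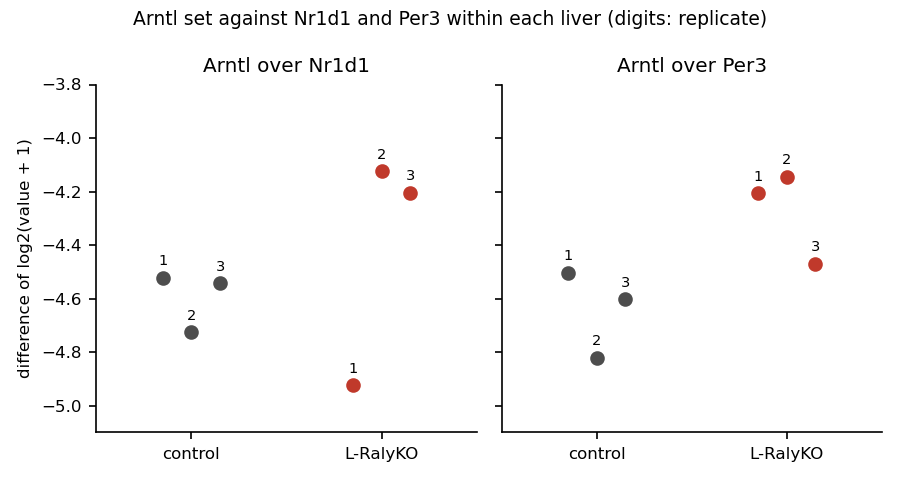
Difference of log2(value + 1) between Arntl and Nr1d1 (left) and between Arntl and Per3 (right) in each liver, with replicate numbers. L-RalyKO mouse 1 lies lowest for Nr1d1 at −4.92, which holds at a pseudocount of 1 and not of 0.1, while all 3 L-RalyKO mice lie above the controls for Per3, from −4.47 to −4.14.

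The elements through which these genes are read were searched in RefSeq promoters of 300 bases, with 250 before and 50 after the start (13 promoters of 9 of the 10 genes, all but Per2). Each was placed on NCBIM37 by an exact match, and 13 of 13 matched once. Letters searched on both strands were CACGTG (E-box), AACGTG (its weaker form, the E′-box), TTATGTAA (D-box, read by DBP, TEF, HLF and NFIL3) and AAAGTAGGT (the core of a ROR element). Of 32851 mouse promoters of that length, 7.15% held the E-box, 4.68% the E′-box, 0.938% the D-box and 0.183% the ROR core. Both Arntl windows are shown because they carry the letters through which REV-ERB acts, and the others because they carry an E-box, an E′-box or a D-box. Capitals mark the match, and each run is written 5′ to 3′ on the strand of its gene.
Arntl, chr7:120351005-120351034, + strand: gattggtcggAAAGTAGGTtagtggtgcga
Arntl, chr7:120351041-120351070, + strand: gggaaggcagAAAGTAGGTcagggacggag
Cry1, chr10:84647842-84647871, − strand: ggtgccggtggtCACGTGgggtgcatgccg
Per1, chr11:68912273-68912302, + strand: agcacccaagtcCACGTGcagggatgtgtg
Nr1d1, chr11:98636702-98636731, − strand: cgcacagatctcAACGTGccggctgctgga
Cry2, chr2:92274375-92274404, − strand: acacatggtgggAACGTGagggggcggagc
Per3, chr4:150418961-150418990, − strand: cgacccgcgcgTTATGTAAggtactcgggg
Per3, chr4:150418914-150418943, − strand: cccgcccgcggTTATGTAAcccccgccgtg

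The first Arntl window begins its match 10 bases before the later of 2 annotated starts. The second window begins its match at base 27, with that start itself counted as the first base. A second match in the Cry1 promoter, an E′-box, began 79 bases before the start, next to the E-box at 60 bases. The promoters of Clock, Npas2 and Nr1d2 held none of these letters. Cry1 and Per1, both with an E-box here, had log2 fold changes of 0.15 and −0.067, and neither passed the test.

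Genes around the core loop were taken from lists written with general knowledge. Of 8 other transcription factors of the loop, 6 were tested and 0 had an adjusted p under 0.05 (limma, background 6.55%), with 3 at an unadjusted p under 0.05 (background 22.7%). Ciart, whose protein represses the BMAL1 pair, had values of 19.6, 17.7 and 23.1 in controls and of 29.1, 23.8 and 27.9 in L-RalyKO liver (log2 fold change 0.40, adjusted p = 0.0591, limma). Bhlhe40, another repressor at E-boxes, followed with a value of 204 ± 33.8 in controls and 159 ± 11.9 in L-RalyKO liver (SD, n = 3 mice, limma adjusted p = 0.104). Rora, which activates through the ROR element that REV-ERB occupies, had values of 77.3 ± 6.59 in controls and 90.2 ± 3.34 in L-RalyKO liver (SD, n = 3 mice, limma adjusted p = 0.0878). The groups did not overlap for Ciart and Rora (background 28.1%) and overlapped for Bhlhe40.

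Of 7 clock output genes all were tested, 2 rose and 0 fell (limma, background 6.55%). Nfil3, a repressor at D-boxes and itself repressed by REV-ERB, had values of 9.36, 14.6 and 13.5 in controls and of 20.8, 21.1 and 21.0 in L-RalyKO liver (log2 fold change 0.73, adjusted p = 0.0185, limma). Usp2, a ubiquitin-specific protease, had values of 62.4, 63.6 and 66.0 in controls and of 99.8, 96.7 and 96.1 in L-RalyKO liver (log2 fold change 0.60, adjusted p = 0.000537, limma). In both genes each L-RalyKO mouse lay above each control (background of groups that do not overlap 28.1%). Dbp, by contrast, did not pass the test, with a log2 fold change of 0.069 and a 95% interval from −0.15 to 0.28 (limma adjusted p = 0.720). Csnk1e, which encodes a kinase of PER proteins, had values of 5.07, 5.96 and 5.95 in controls and of 6.92, 7.49 and 6.81 in L-RalyKO liver (log2 fold change 0.28, adjusted p = 0.0955, limma). The groups did not overlap for Csnk1e, but it did not pass the test.

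Likeness to Arntl was described by the Pearson correlation of log2(value + 1) over the 6 mice, among 11579 other genes. The highest were those of Eif2d (0.99), Ak3 (0.99), Aimp1 (0.99), Myd88 (0.98) and Ago4 (0.98), and the lowest those of Pard3b (−0.99), Mfsd7a (−0.99), Sik2 (−0.99), Rbm19 (−0.99) and Rbfox2 (−0.99). Among the core genes Nr1d2 was the nearest (0.73, rank 1452), then Cry2 (0.70, rank 1715), and Clock was the farthest (−0.95, rank 11507). The 6 points fall into the 2 groups of mice, for which Arntl does not overlap.

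**Figure D5:**
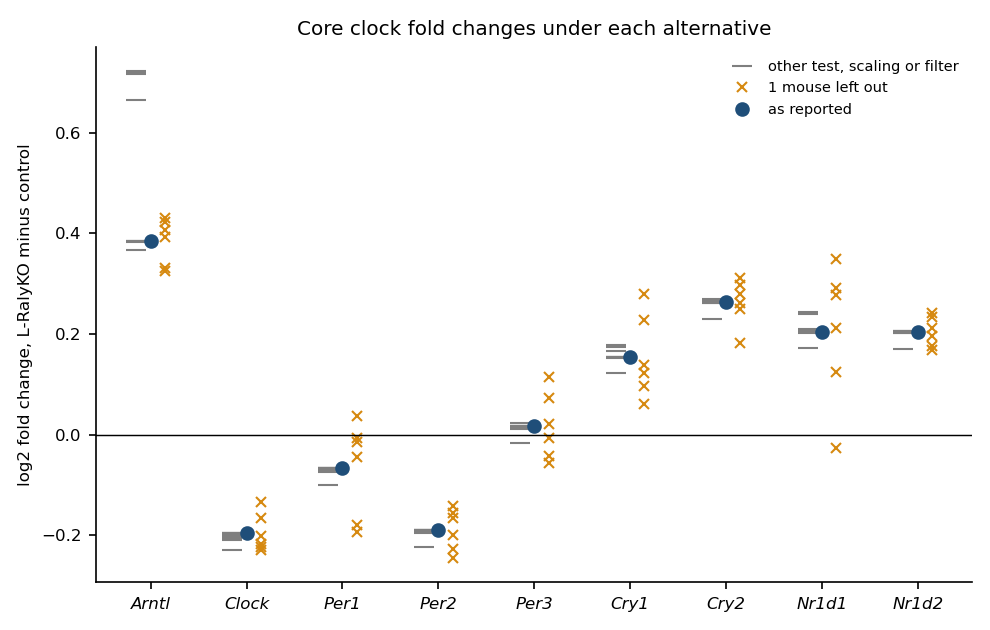
Log2 fold change of each tested core clock gene as reported (blue), under other tests, scalings, filters and a pseudocount (grey dashes) and with each mouse left out in turn (crosses). Arntl rises to 0.72 in tests on reads, Nr1d1 falls to −0.027 without L-RalyKO mouse 1, and Per1 and Per3 lie on both sides of 0.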

How the data were processed

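Liver RNA-seq of 3 L-RalyKO and 3 control mice was analysed, and the other experiments of the series were not analysed here. The deposited values are a normalized signal, in which the authors divided the reads of a gene by the effective size of its library. The study's methods name TopHat on mm9 and Cufflinks 2.0.2, and the Cuffdiff test on FPKM described there could not be run on this table. Dividing by the value of a single read gave whole reads for 100% of the values of each library (tolerance 0.001), and these reads were used. Columns were matched to samples by virus and replicate number. The labels only number the samples of a group, and p values measure the spread between these.

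The main test was limma (version 3.58.1 under R 4.3.3) with an intensity trend. It was fitted to log2(value + 1) of all 11580 genes whose mean value reached 1, with Benjamini-Hochberg adjustment over these. This scale understates fold changes of low genes. Recovered reads were also tested with edgeR 4.0.16 (728 genes called, against 758) and DESeq2 1.42.0 (1088 called). On simulated data limma recovered 83.7% of 196 changed genes, and false genes made up 1.80% of its calls. The planted changes were larger than the log2 fold changes limma gave for the core clock genes. The share recovered does not cover changes of that size.

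Gene coordinates, exon lengths and overlaps come from GENCODE vM1 on NCBIM37 (mm9), and promoters from RefSeq on GRCm38.p6. Members and gene lists were chosen with earlier results of these data known. Besides the core genes, genes that overlap them and those most and least like Arntl, the text names listed genes at an adjusted p under 0.05 and the 2 largest changes of each list other than the cell markers. Rora, Dbp, Cyp7a1, Noct, Tsc22d3 and Sgk1 were added after their values were seen. Noct is listed as Ccrn4l. A listed gene and the counts of its list are not reported here.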

Additional observations from a re-analysis of the deposited data

How the results depend on the processing

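The count of core clock genes at an adjusted p under 0.05 was 0 with edgeR, limma voom, upper-quartile and total count scaling, both other filters, a pseudocount of 0.1 and in each of the 6 fits without 1 mouse, and it was 2 with DESeq2 and 1 without an intensity trend. The cause was not tested. The 758 genes called over all genes became 484 when every gene with a read was tested, and from 332 to 813 when 1 mouse was left out (332 without L-RalyKO mouse 1, 369 without control mouse 1, 437 without L-RalyKO mouse 2 and 491 without L-RalyKO mouse 3). Directions were kept in each of these alternatives that tested them for Arntl (not tested at a mean value of at least 5), Clock, Per2, Cry1, Cry2 and Nr1d2. The log2 fold change of Per3 was −0.017 with total count scaling and lay between −0.056 and 0.11 without single mice. That of Per1 lay between −0.19 and 0.037 (the latter without control mouse 2), that of Nr1d1 between −0.027 and 0.35 and that of Cry1 between 0.061 and 0.28. Same-numbered mice did not deviate together (correlations of 0.066, −0.024 and 0.020 across genes), and with the replicate block 704 genes and 0 core clock genes were called. Npas2, with at most 4 reads in a liver, was too shallow for a comparison, and few reads stand behind Arntl.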

Other observations

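Other lists touch the clock from outside the loop. Of 7 liver metabolic genes under clock control, 2 rose and 1 fell in L-RalyKO liver (limma, background 6.55% of all genes tested). Por, the electron donor of cytochrome P450 enzymes, rose from 616 ± 64.2 to 929 ± 48.5 (SD, n = 3 mice, limma adjusted p = 0.00531), and Gys2, the liver glycogen synthase, from 348 ± 1.07 to 416 ± 27.5 (limma adjusted p = 0.0332). Insig2, which retains SREBP in the endoplasmic reticulum and is a known REV-ERB target, had values of 158, 113 and 130 in controls and of 81.2, 91.8 and 91.8 in L-RalyKO liver (log2 fold change −0.58, adjusted p = 0.0190, limma). Of 9 temperature-responsive genes 0 passed the test (limma, background 6.55%), with 1 at an unadjusted p under 0.05 (background 22.7%). The largest differences among these were those of the heat shock genes Hspa1b, at 0.40 on the log2 scale (limma adjusted p = 0.394), and Hspa1a, at −0.34 (limma adjusted p = 0.588). Of 7 glucocorticoid-induced genes 2 rose and 0 fell (limma, background 6.55%). Fkbp5, a chaperone of the glucocorticoid receptor, had values of 67.2, 53.1 and 119 in controls and of 233, 194 and 216 in L-RalyKO liver (limma adjusted p = 0.0105). Klf9, a transcription factor gene, had values of 89.5, 82.0 and 99.5 in controls and of 157, 157 and 154 in L-RalyKO liver (limma adjusted p = 0.000881). Others of this list lay in the opposite direction without passing the test. Tsc22d3 had a log2 fold change of −0.78 with a limma adjusted p of 0.0594, and Sgk1, a kinase gene, one of −0.45 with a limma adjusted p of 0.0571, and for both the groups did not overlap (background 28.1%).

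Single L-RalyKO mice stood apart in genes near the clock, here chosen after their values were seen. L-RalyKO mouse 1, with the high Nr1d1, had a Cyp7a1 value of 236, where the other 5 mice lay between 89.6 and 131. L-RalyKO mouse 3 had a value of 109 for Noct, a rhythmic phosphatase gene, within the controls (100.1 to 120.4), whereas mice 1 and 2 had 55.7 and 68.6. For Tsc22d3 the same mouse had 154, below the controls at 160.3 to 196, and mice 1 and 2 had 89.0 and 82.9.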
